A study of Mus musculus with 8 samples.

Results

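Transcripts of 9 adrenergic and muscarinic receptors were followed in mouse neonatal cardiomyocytes (NCMs). The genes were taken by name from the count table, which holds 27179 Entrez genes, and all 9 were found. They are the α1-adrenergic receptors Adra1a, Adra1b and Adra1d, the α2-adrenergic receptors Adra2a, Adra2b and Adra2c, the β-adrenergic receptors Adrb1 and Adrb3, and the M2 muscarinic receptor Chrm2. The study had itself picked Adra1b and Adra2a from these libraries, so their direction here is not independent evidence. The other muscarinic receptors were read as part of the pathway lists, and further adrenergic receptors were not analysed here.

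NCMs came from hearts of male C57Bl/6J pups on postnatal day 0 whose mothers had breathed either filtered air (FA) or diesel exhaust (DE) from E0.5 to E17.5. Atria and vessels were trimmed, the rest was digested, and cells that stuck to plastic within the first hour were left behind to lower the number of fibroblasts. RNA was sequenced from 4 FA libraries (replicates 2, 3, 4 and 6) and 4 DE libraries (replicates 1, 3, 5 and 7), each made from 1 heart, with totals between 17943024 and 39839737 counts. The study's methods state fewer samples per group than the 8 labelled libraries, and all 8 were used. By name, DE 3 and DE 5 have the prefix 12 and the other 6 libraries the prefix 11, whose meaning is not given in the sources used here. No FA library carries the prefix 12, so what is particular to DE 3 and DE 5 cannot be told apart from DE by comparison with FA.

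Adrenergic receptors bind noradrenaline and adrenaline from sympathetic nerves and the adrenal gland, and muscarinic receptors bind acetylcholine from the vagus nerve. All of them signal through G proteins. β receptors use Gs, which raises cAMP and drives protein kinase A, and in the heart this quickens and strengthens the beat. α1 receptors use Gq, phospholipase C and protein kinase C, and in cardiomyocytes are linked to growth and contraction. α2 receptors and the M2 receptor use Gi, which lowers cAMP, and M2 also opens a potassium channel that slows the pacemaker. α2 receptors are best known on nerve endings, where they hold back the release of noradrenaline.

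The cells carried the markers of their label. The summed level of 10 cardiomyocyte markers lay between 67860 and 73600 CPM (counts scaled to a common library total) in FA and between 59670 and 70750 CPM in DE, with overlap. Of the 10, 8 were lower on average in DE and 2 were called, Myh6, the fast myosin heavy chain (23300 ± 1521 CPM in FA, 14620 ± 685 CPM in DE; SD, n = 4), as lower and Myh7 as higher. Myh6 was the largest member of this sum in FA, and without it no DE library lay below the FA range. The summed level of 8 fibroblast markers was 2008 to 3461 CPM in FA and 3655 to 6177 CPM in DE, without overlap. All 8 were higher on average in DE, and 2 of the 8 were called by edgeR's quasi-likelihood test and by limma-voom and 6 by DESeq2 and by edgeR's likelihood ratio test. Of all tested genes, these 4 tests called 5.8%, 5.75%, 10.9% and 10.7%, in the same order. The sum of 9 smooth muscle and pericyte markers was lower in DE, at 1172 to 1579 CPM against 1608 to 2181 CPM, but 5 of the 9 were higher on average and their median log2 fold change was 0.09. Most of that sum was Acta2 (1151 CPM in FA, 746 CPM in DE) and Abcc9 (400.5 and 298 CPM), which cardiomyocytes also express. Of these markers 0 of 9 were called by edgeR's quasi-likelihood test and by limma-voom, 1 by DESeq2 and by edgeR's likelihood ratio test, and 2 were at an unadjusted p under 0.05 by the first of these, as were 25.6% of all tested genes. Markers of the other cell types overlapped between the groups in their sums, those of sympathetic neurons at 11.9 to 14.6 CPM (FA) and 12.7 to 17.2 CPM (DE), with 5 of these 8 markers under 1 CPM in every library. In bulk RNA, fewer cells of a type and less RNA per cell cannot be told apart.

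Levels of different receptors were compared per kilobase of the longest annotated transcript, as CPM per kilobase, because a longer transcript yields more fragments. In FA, Adra1b was the most abundant at 8.27 ± 0.488 CPM per kilobase (SD, n = 4), followed by Adrb1 at 5.49 ± 0.994 and Chrm2 at 3.37 ± 0.778. The library ranges of Adrb1 and Chrm2 overlapped, while that of Adra1b lay above both. The next tier held Adra1d at 0.609 ± 0.144 CPM per kilobase, Adra2a at 0.224 ± 0.0203 and Adra2b at 0.115 ± 0.0463, each without overlap with its neighbour above. Adra1a at 0.0420 ± 0.0252, Adrb3 at 0.0217 ± 0.0172 and Adra2c at 0.00604 ± 0.00781 CPM per kilobase came last, and their ranges overlapped from one to the next and, for Adra1a, with Adra2b.

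In DE the top of the order was no longer separated. Adrb1 stood at 4.13 ± 0.767 CPM per kilobase (SD, n = 4), Adra1b at 3.65 ± 0.315 and Chrm2 at 2.88 ± 1.91, and neighbours overlapped. Chrm2 ran from 1.15 to 4.70 CPM per kilobase over the DE libraries, so that its place in the order differed between them. Adra2a, at 0.462 ± 0.118 CPM per kilobase, overlapped with Adra1d at 0.514 ± 0.190, where in FA it lay below it. Adra2b stayed at 0.115 ± 0.0731 and remained below Adra2a in every library. The 3 lowest receptors were again close, at 0.050 ± 0.0260 for Adrb3, 0.0287 ± 0.0154 for Adra1a and 0.0146 ± 0.0109 for Adra2c. With the summed length of all annotated exons in place of the longest transcript, Adra1a and Adra2c exchanged places at the bottom in DE, and no other receptor changed its place.

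**Figure D1:**
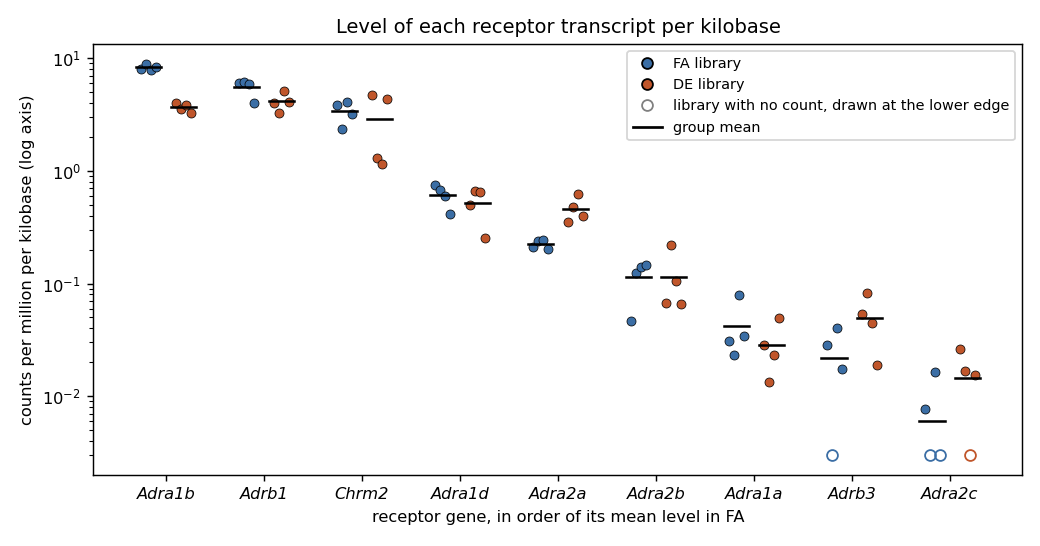
Level of each of the 9 receptor transcripts in CPM per kilobase of the longest transcript, on a log axis, with 1 point per library (blue FA, orange DE), a bar at the group mean and open rings for libraries without a count. Adra1b is highest in FA at 8.27 and comes to lie beside Adrb1 in DE at 3.65, and Adra2a moves from 0.224 to 0.462.

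Differences between DE and FA were tested for the 14966 genes with enough counts, with edgeR's quasi-likelihood test and Benjamini-Hochberg adjustment over all of them, and calls required an adjusted p of 0.05 or less and a difference of at least 25%. Of the 9 receptors, 6 passed the filter on low counts and 3 (Adra1a, Adra2c and Adrb3) did not. Among the 6, Adra1b was called lower and Adra2a higher. Of all tested genes, 5.8% were called, 2.22% as lower and 3.58% as higher in DE. The same 2 receptors were those whose library ranges did not overlap between the groups, which was so for 14.7% of all tested genes. The median log2 fold change of the 6 receptors was -0.23, beside 0.00 over all tested genes.

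Adra1b (Entrez 11548, chromosome 11, 43774605 to 43901250 of mm10) encodes the α1B receptor, which is a main α1 receptor of the rodent cardiomyocyte. It was counted at 26.6, 29.8, 26.2 and 27.6 CPM in FA 2, 3, 4 and 6 and at 13.2, 11.9, 12.7 and 10.8 CPM in DE 1, 3, 5 and 7. Every DE library lay below every FA library, and the libraries within a group were close to each other. The mean fell from 27.5 ± 1.62 to 12.2 ± 1.05 CPM (SD, n = 4), a log2 fold change of -1.18 ± 0.10 (SE; 95% interval -1.40 to -0.95) at an adjusted p of 0.00018 by edgeR's quasi-likelihood test. DE thus held 0.442 of the FA level. These values rest on 464 to 993 counts per library in FA and 203 to 509 in DE.

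The lower level of Adra1b was alike in both kinds of DE library. In a model of 3 groups, chosen after the values were seen, DE 1 and DE 7 differed from FA by a log2 of -1.19 (adjusted p 0.000694, edgeR's quasi-likelihood test) and DE 3 and DE 5 by -1.16 (adjusted p 0.000608). The difference between the 2 kinds was 0.02 ± 0.14 (SE) on the log2 scale. Adra1b was called under all 19 alternatives, with log2 fold changes between -1.25 and -1.10 and adjusted p of at most 0.00215. The fibroblast marker sum given above also separated the groups, and its part in this result was not tested. The cardiomyocyte marker sum was lower in DE 1, DE 3 and DE 7, at 59670 to 60880 CPM, than in any FA library, and DE 5, at 70750 CPM, lay within the FA range. With Myh6 left out of this sum, no DE library lay below the FA range. The part of the sum in this result was not tested either.

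The other α1 receptors were scarcer. Adra1d (Entrez 11550, chromosome 2, 131545357 to 131562497) encodes the α1D receptor, known mainly for the contraction of arteries. In FA 2, 3, 4 and 6 its level was 1.42, 1.30, 1.13 and 0.787 CPM, and in DE 1, 3, 5 and 7 it was 0.938, 1.26, 1.22 and 0.480 CPM. The groups overlapped, and the lowest library of each, FA 6 and DE 7, stood somewhat apart. The log2 fold change was -0.22 ± 0.29 (SE; 95% interval -0.86 to 0.43) at an adjusted p of 0.673 by edgeR's quasi-likelihood test, so that a fall of the size seen for Adra1b lay outside the interval. It was not called under any of 19 alternatives, where it ran from -0.66 with the libraries of prefix 11 alone to -0.04. The gene overlaps the antisense gene Gm14285, and with the strand setting of the counting not given, reads of the pair may not have been told apart.

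Adra1a (Entrez 11549, chromosome 14, 66635251 to 66771240) encodes the α1A receptor, which in adult mouse hearts is the partner of α1B in the ventricle. It had 5, 2, 6 and 3 counts in FA 2, 3, 4 and 6 and 4, 2, 4 and 4 counts in DE 1, 3, 5 and 7. No library stood out, and the sums of 16 counts in FA and 14 in DE were too low for a test. The limit that a count of 0 allows, 3 counts, corresponded to 0.0748 to 0.169 CPM depending on the library and covers counting error only, so these values lay at or near the limit of detection.

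Among the α2 receptors, Adra2a (Entrez 11551, chromosome 19, 54045259 to 54048982) encodes the α2A receptor, which restrains noradrenaline release and is also found outside nerves. It was counted at 1.02, 1.15, 1.19 and 0.984 CPM in FA 2, 3, 4 and 6 and at 1.69, 2.32, 2.99 and 1.92 CPM in DE 1, 3, 5 and 7. Every DE library exceeded every FA library, and the DE libraries spread more widely, with DE 5 and DE 3 highest. The mean rose from 1.08 ± 0.0979 to 2.23 ± 0.570 CPM (SD, n = 4), a log2 fold change of 1.06 ± 0.22 (SE; 95% interval 0.58 to 1.55) at an adjusted p of 0.0228 by edgeR's quasi-likelihood test. The level was low, with 20 to 38 counts per library in FA and 36 to 120 in DE.

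The call of Adra2a was less firm than that of Adra1b. It was lost in 7 of 19 alternatives, although its direction held in all of them, with log2 fold changes between 0.73 and 1.18. Leaving out FA 2 gave an adjusted p of 0.0857, FA 3 0.0502, FA 4 0.0667 and DE 3 0.0688 (edgeR's quasi-likelihood test), each with a log2 fold change between 1.02 and 1.10. With the libraries of prefix 11 alone, where the group means were 1.08 CPM in FA and 1.81 CPM in DE, the log2 fold change was 0.73 at an adjusted p of 0.143. In the model of 3 groups, DE 3 and DE 5 exceeded FA by 1.31 on the log2 scale (adjusted p 0.00266) and DE 1 and DE 7 by 0.74 (adjusted p 0.11). The difference between these, 0.57 ± 0.24 (SE), was not called (adjusted p 0.179). The fibroblast marker sum was also higher in every DE library than in any FA library. Of the 8 sympathetic neuron markers, tyrosine hydroxylase (Th) was at 0.303 CPM or less and the noradrenaline transporter (Slc6a2) at 0.399 CPM or less in every library, while the vesicular transporter Slc18a2 was at 10.2 to 13.7 CPM and Dbh at 0.726 to 1.55 CPM. Peripherin (Prph) was higher on average in DE, at 0.373 to 1.12 CPM against 0.169 to 0.562 CPM in FA (log2 fold change 1.24, adjusted p 0.0955), and was called by edgeR's likelihood ratio test but not by the quasi-likelihood test, DESeq2 or limma-voom. The part of these cells in the level of Adra2a was not tested.

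Adra2b (Entrez 11552, chromosome 2, 127363179 to 127367221) encodes the α2B receptor, best known in blood vessels. In FA 2, 3, 4 and 6 its level was 0.187, 0.498, 0.564 and 0.590 CPM, and in DE 1, 3, 5 and 7 it was 0.272, 0.889, 0.424 and 0.267 CPM. The ranges overlapped, with FA 2 the lowest and DE 3 the highest of all. The log2 fold change was 0.16 ± 0.47 (SE; 95% interval -0.88 to 1.20) at an adjusted p of 0.86 by edgeR's quasi-likelihood test, and its sign turned in 4 of 18 alternatives, to -0.37 without DE 3 and to -0.20 without FA 2 among them. With 5 to 31 counts per library, a rise of the size seen for Adra2a lay within the interval. Adra2c (Entrez 11553, chromosome 5, 35278566 to 35281763), encoding the α2C receptor, had 1, 0, 1 and 0 counts in FA and 3, 2, 0 and 1 in DE, which is at or under 3 counts in every library and allows no comparison.

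Of the β receptors, Adrb1 (Entrez 11554, chromosome 19, 56722117 to 56725150) encodes the β1 receptor, the main β receptor of the heart muscle. It was counted at 17.6, 18.1, 17.3 and 11.9 CPM in FA 2, 3, 4 and 6 and at 11.8, 9.70, 15.2 and 12.1 CPM in DE 1, 3, 5 and 7. FA 2, FA 3 and FA 4 lay above all DE libraries, and FA 6 lay among them. The mean of FA was 16.2 ± 2.93 CPM and that of DE 12.2 ± 2.26 CPM (SD, n = 4). The log2 fold change of -0.41 ± 0.17 (SE; 95% interval -0.78 to -0.04) had an unadjusted p of 0.0311 and an adjusted p of 0.153 by edgeR's quasi-likelihood test, and was not called.

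Adrb1 was not called under any of the 19 alternatives, where its log2 fold change ran from -0.54 to -0.32. Without FA 6 it was -0.54 at an adjusted p of 0.0658, and with offsets for the length and GC content of transcripts it was -0.54 at an adjusted p of 0.0525 (edgeR's quasi-likelihood test). Adrb3 (Entrez 11556, chromosome 8, 27225776 to 27230845) encodes the β3 receptor, known for fat breakdown and heat production in adipose tissue. It had 3, 0, 2 and 1 counts in FA 2, 3, 4 and 6 and 5, 8, 5 and 1 counts in DE 1, 3, 5 and 7. The sums were 6 counts in FA and 19 in DE, the gene did not pass the filter on low counts, and it overlaps the antisense gene Gm45470. Among the 5 markers of brown adipocytes, Plin1 and Adipoq were under 1 CPM in every library and Ucp1 at 1.98 CPM or less, while Fabp4 was at 261 to 531 CPM. Cidea was called lower in DE, at 7.83 to 9.83 CPM against 13.8 to 19.0 CPM in FA (log2 fold change -0.92, adjusted p 0.00373 by edgeR's quasi-likelihood test). Their part in the counts of Adrb3 was not tested.

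Chrm2 (Entrez 243764, chromosome 6, 36387991 to 36528638) encodes the M2 receptor, the main muscarinic receptor of cardiomyocytes. It was counted at 21.8, 13.4, 23.3 and 18.1 CPM in FA 2, 3, 4 and 6 and at 26.7, 7.46, 6.51 and 24.7 CPM in DE 1, 3, 5 and 7. The DE libraries fell into 2 pairs on either side of FA, with DE 1 and DE 7 above all FA libraries and DE 3 and DE 5 below all of them. FA averaged 19.1 ± 4.41 CPM and DE 16.3 ± 10.8 CPM (SD, n = 4). The log2 fold change of -0.24 ± 0.41 (SE; 95% interval -1.15 to 0.66) had an adjusted p of 0.743 by edgeR's quasi-likelihood test, and without DE 5 it was 0.03. These values rest on 881 and 463 counts in DE 1 and DE 7 and 260 and 261 in DE 3 and DE 5.

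**Figure D2:**
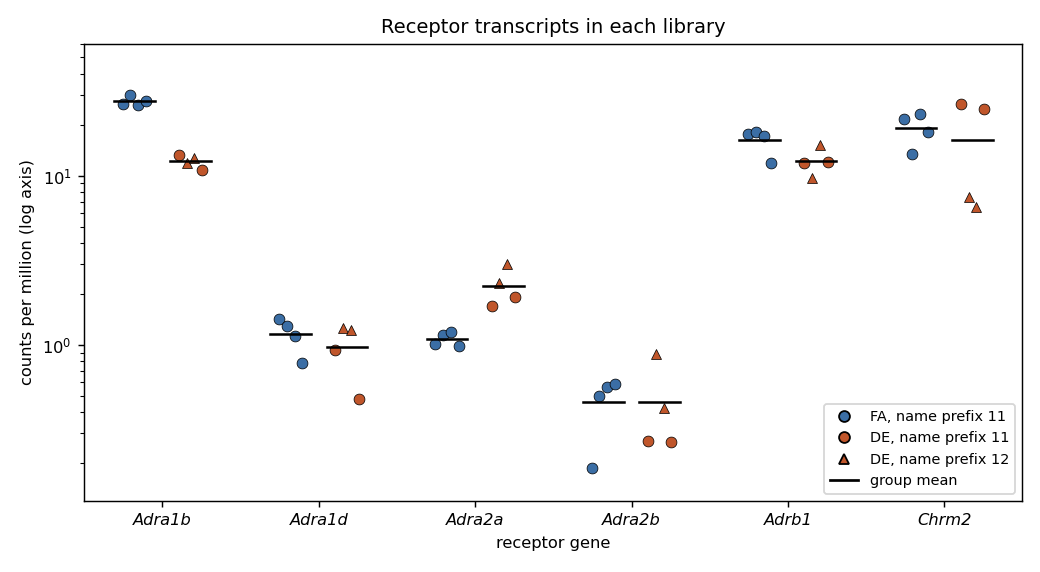
CPM of the 6 tested receptors in each library on a log axis, with FA in blue, DE in orange, circles for the name prefix 11, triangles for the prefix 12 and bars at the group means. Adra1b and Adra2a separate the groups, at 27.5 against 12.2 and 1.08 against 2.23 CPM on average, while the Chrm2 values of DE split by prefix.

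The split of Chrm2 within DE was described with the model of 3 groups, chosen after the values were seen. DE 3 and DE 5 lay below DE 1 and DE 7 by 1.88 ± 0.22 (SE) on the log2 scale, with a value of -1.88 at an adjusted p of 0.0126 by edgeR's quasi-likelihood test, or 3.68-fold. Between these pairs 2.06% of all tested genes were called, and Chrm2 was the only one of the 6 tested receptors. Against FA, DE 3 and DE 5 differed by -1.45 ± 0.20 (SE; adjusted p 0.00192) and DE 1 and DE 7 by 0.43 ± 0.18 (SE; adjusted p 0.247). The potassium channel subunit Kcnj3, through which M2 receptors act in the heart, followed the same libraries, at 3.47 and 2.42 CPM in DE 3 and DE 5 against 6.38 and 6.13 CPM in DE 1 and DE 7. In FA 2, 3, 4 and 6 Kcnj3 was at 8.155, 6.13, 8.69 and 6.39 CPM. Unlike for Chrm2, DE 1 and DE 7 did not lie above all FA libraries. The difference of Kcnj3 between the pairs was -1.09 ± 0.23 (SE; adjusted p 0.0415). Of the 101 tested genes of the receptor pathways, 2 were called between the pairs, Kcnj3 and the phosphodiesterase Pde4a, which was higher in DE 3 and DE 5 by 0.78 ± 0.15 (SE; adjusted p 0.0361). Against FA, 31 of the 101 were called for DE 3 and DE 5, 20 of them lower, beside 23.4% of all tested genes, and Kcnj3 was among them (-1.32 ± 0.21, SE; adjusted p 0.00263). For DE 1 and DE 7, 2 of the 101 were called against FA, beside 2.99% of all tested genes.

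The same libraries also differed in the level of long transcripts relative to short ones. For each library, the median level of 3244 genes with transcripts over 5000 bases was set against that of 2783 genes under 2000 bases, each relative to the mean of all libraries. This difference was 0.452, -0.192, 0.383 and -0.0561 on the log2 scale in FA 2, 3, 4 and 6 and 0.106, -0.346, -0.453 and 0.119 in DE 1, 3, 5 and 7. DE 5, DE 3 and FA 3 had the lowest values, and these were also the 3 libraries with the lowest Chrm2. The longest annotated Chrm2 transcript has 5.68 kilobases, against 3.33 for Adra1b and 2.95 for Adrb1. With the trend in length and GC content removed from every library by offsets, the difference of DE 3 and DE 5 from DE 1 and DE 7 was -1.52 ± 0.16 (SE; adjusted p 0.00715 by edgeR's quasi-likelihood test) for Chrm2, and for Kcnj3 -0.81 ± 0.19 (SE; adjusted p 0.064), no longer called.

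**Figure D3:**
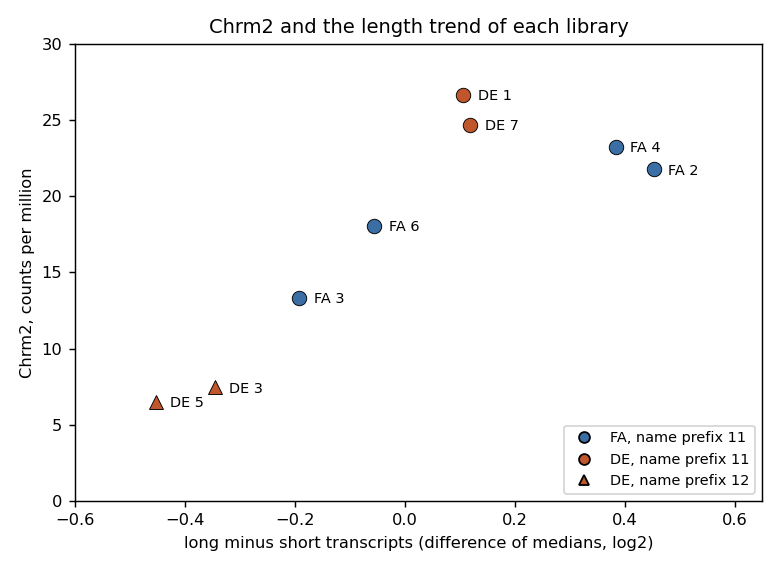
Chrm2 in CPM (vertical axis, from 0) against the difference of median level between long and short transcripts (horizontal axis, log2) for each library, labelled by group and replicate, with triangles for the prefix 12. DE 3 and DE 5 are lowest on both axes, while DE 1 and DE 7 have more Chrm2 than FA 2 and FA 4 at a smaller horizontal value.

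Chrm2 also overlaps a long noncoding RNA on the opposite strand (9330158H04Rik) and hosts the microRNA gene Mir490, neither of which can be told apart from it here. Of the other muscarinic receptors, Chrm3, which uses Gq, was called lower in DE. Its level was 1.12, 1.30, 1.69 and 1.08 CPM in FA 2, 3, 4 and 6 and 0.757, 0.602, 0.648 and 0.80 CPM in DE 1, 3, 5 and 7, without overlap. The log2 fold change was -0.88 ± 0.23 (SE; adjusted p 0.0454 by edgeR's quasi-likelihood test). The call was lost in 12 of 18 alternatives, among them the libraries of prefix 11 alone (-0.72, adjusted p 0.249) and each left-out library except DE 1 (adjusted p 0.0521 to 0.142), with the same direction in all 18. Chrm4, which uses Gi like Chrm2, averaged 1.42 ± 0.184 CPM in the FA group and 1.91 ± 0.415 CPM in the DE group (SD, n = 4) and was not called (adjusted p 0.222). Chrm1 and Chrm5 had 31 and 5 counts in all 8 libraries together and were not tested.

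Genes that carry the receptors' signals were read from 10 lists with 111 genes, of which 101 were tested. Called were 10 of them (9.9%), 7 lower and 3 higher in DE, beside 5.8% of all tested genes, and 15 (14.9%) had library ranges that did not overlap, beside 14.7% of all tested genes. Their median log2 fold change was 0.01, against 0.00 over all tested genes. Of the 10 calls, Per1 and Myh7 held with any single library left out, and the other 8 were lost both without FA 2 (adjusted p 0.0698 to 0.141) and without DE 3 (adjusted p 0.0627 to 0.136, edgeR's quasi-likelihood test). With the 25% difference built into the test (edgeR's glmTreat), 0 were called and 14 were at an unadjusted p under 0.05, beside 0.762% and 9.94% of all tested genes. With the libraries of prefix 11 alone, 2 pathway genes were called, beside 1.75% of all genes tested there, Per1 (log2 fold change 0.91, adjusted p 0.0282) and Pde4a (-0.77, adjusted p 0.0223).

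The median log2 fold change of the 16 tested genes in the pathway of the α1 receptors was 0.02. Called was 1 of them, beside 5.8% of all tested genes. This was protein kinase C delta (Prkcd), which rose from 23.7 ± 1.18 to 33.6 ± 4.24 CPM (SD, n = 4; log2 fold change 0.50 ± 0.11 SE, adjusted p 0.0268 by edgeR's quasi-likelihood test). The α subunits that α1 receptors couple to, Gnaq and Gna11, stood at 60.2 ± 11.1 and 54.0 ± 2.76 CPM in FA and at 53.0 ± 10.1 and 51.7 ± 8.33 CPM in DE and were not called. Of 10 transcripts known to respond to α1 agonists in cultured cardiomyocytes, 1 was called, beside 5.8% of all tested genes. This was Myh7, the slow myosin heavy chain of the fetal mouse ventricle, which rose from 9205 to 11230 CPM in FA to 13520 to 15530 CPM in DE (log2 fold change 0.53 ± 0.10 SE, adjusted p 0.0157). The natriuretic peptide transcripts were not called by the quasi-likelihood test, Nppa at 704.0 ± 260 and 398 ± 80.4 CPM and Nppb at 224 ± 46.2 and 361 ± 139 CPM in FA and DE. Nppa was called lower by DESeq2 (adjusted p 0.0188) and by edgeR's likelihood ratio test (adjusted p 0.025) and not by limma-voom (adjusted p 0.113).

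In the pathway of the β receptors, DESeq2 and edgeR's likelihood ratio test each called 3 of 25 tested genes. Of all tested genes they called 10.9% and 10.7%. At an unadjusted p under 0.05 by the quasi-likelihood test were 7 of the 25, beside 25.6% of all tested genes. That test called 1 of the 25, beside 5.8% of all tested genes, and the median log2 fold change was 0.01. The call was Akap6, an anchor that holds protein kinase A at the nuclear envelope and the sarcoplasmic reticulum, which fell from 248 ± 48.8 to 157 ± 31.0 CPM (SD, n = 4; log2 fold change -0.66 ± 0.17 SE, adjusted p 0.0458 by edgeR's quasi-likelihood test). With the offsets for length and GC content it was called at -0.34 (adjusted p 0.0297), and its longest transcript has 14847 bases. The Gs subunit Gnas (log2 fold change 0.22), the cardiac adenylyl cyclases Adcy5 (-0.10) and Adcy6 (-0.15) and the kinase subunit Prkaca (-0.05) were not called. Of 10 transcripts that respond to cAMP, 1 was called, beside 5.8% of all tested genes. This was the clock gene Per1. It rose from 93.2 ± 19.2 to 167 ± 12.6 CPM (log2 fold change 0.84 ± 0.15 SE, adjusted p 0.0103). Its DE libraries, at 154 to 183 CPM, all lay above its FA libraries, at 64.5 to 104 CPM.

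Of 11 genes of excitation-contraction coupling whose proteins protein kinase A acts on, directly or through a partner, 4 were called, all lower in DE, beside 2.22% of all tested genes. The median log2 fold change of the 11 was -0.38. The fibroblast marker sum was higher in every DE library than in any FA library. The cardiomyocyte marker sum was lower in DE 1, DE 3 and DE 7 than in any FA library. With Myh6 left out of the latter sum, no DE library lay below the FA range. The part of these sums in the lower levels of these genes was not tested. Phospholamban (Pln), the brake on the calcium pump, fell from 3477 ± 144 to 2668 ± 180 CPM (SD, n = 4; log2 fold change -0.38 ± 0.09 SE, adjusted p 0.036 by edgeR's quasi-likelihood test). The calcium pump itself (Atp2a2) fell from 7061 ± 1104 to 4966 ± 296 CPM (-0.51 ± 0.12 SE, adjusted p 0.0362). Rrad, an inhibitor of the L-type calcium channel, fell from 74.3 ± 11.5 to 46.3 ± 9.81 CPM (-0.68 ± 0.16 SE, adjusted p 0.037), and the channel subunit Cacnb2 from 78.5 ± 1.87 to 60.03 ± 7.11 CPM (-0.39 ± 0.10 SE, adjusted p 0.0486). The channel's pore subunit Cacna1c (-0.68, adjusted p 0.089) and the ryanodine receptor Ryr2 (-0.62, adjusted p 0.152) were not called by the quasi-likelihood test. With the offsets for length and GC content, Pln, Atp2a2 and Rrad were called and Cacnb2 was not (-0.26, adjusted p 0.0655).

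In the pathway of the α2 and M2 receptors, 1 of 9 tested genes was called, beside 5.8% of all tested genes. The median log2 fold change of the 9 was 0.05. At an unadjusted p under 0.05 by edgeR's quasi-likelihood test were 5 of the 9, beside 25.6% of all tested genes. DESeq2 called 2 of the 9, beside 10.9% of all tested genes. The gene called by the quasi-likelihood test was Kcnj5, which pairs with Kcnj3 in the acetylcholine-gated potassium channel. It was counted at 89.7, 87.5, 93.6 and 79.6 CPM in FA 2, 3, 4 and 6 and at 59.5, 63.2, 62.8 and 69.3 CPM in DE 1, 3, 5 and 7, without overlap and without the split that Kcnj3 and Chrm2 showed within DE. The log2 fold change was -0.46 ± 0.09 (SE; adjusted p 0.0196 by edgeR's quasi-likelihood test). Kcnj3 was not called between DE and FA by this test (-0.70, adjusted p 0.149), nor was the Gi subunit Gnai2 (0.32, adjusted p 0.107).

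Kinases and arrestins that switch off the receptors gave 0 of 7 calls by edgeR's quasi-likelihood test and by limma-voom and 1 by DESeq2 and by the likelihood ratio test. By the first of these, 2 of the 7 were at an unadjusted p under 0.05, a share near the 25.6% of all tested genes. The nearest was Grk6 with 20.4 ± 0.936 CPM under FA and 26.6 ± 2.47 CPM under DE (SD, n = 4; adjusted p 0.051), while Grk2, the main such kinase of the heart, was at 54.4 ± 2.90 and 58.1 ± 6.16 CPM. Genes of catecholamine synthesis, transport and breakdown gave 0 of 8 calls by each of these 4 tests with 2 at an unadjusted p under 0.05, again near the share of all tested genes, and those of acetylcholine gave 0 of 5 by each, none at an unadjusted p under 0.05. In these cells dopa decarboxylase (Ddc) had 161 ± 5.51 CPM under FA and 159 ± 15.9 CPM under DE, while Th, the first enzyme of the same pathway, had 25 counts in all 8 libraries and choline acetyltransferase (Chat) had 0.

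**Figure D4:**
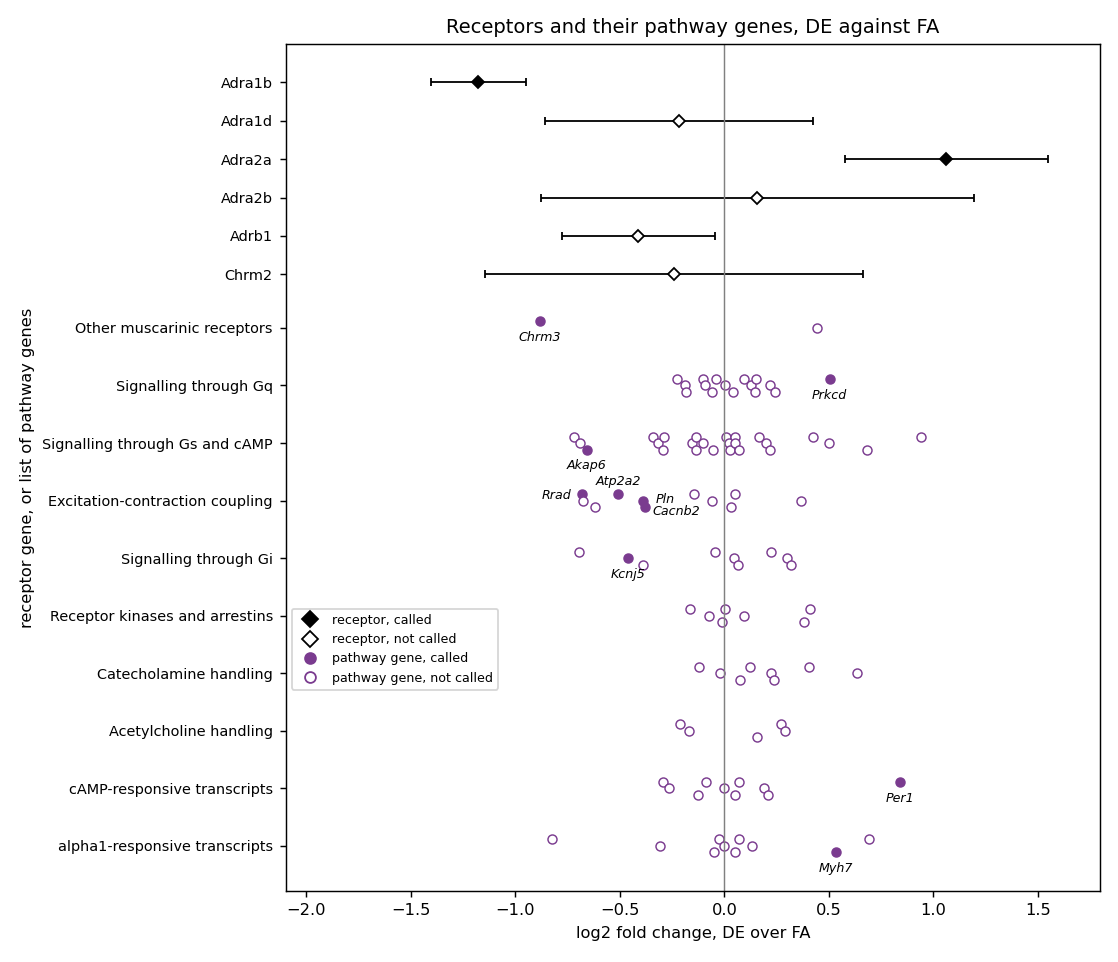
Log2 fold change of DE over FA for the 6 tested receptors (diamonds with 95% intervals) and for the 101 tested pathway genes by list (circles, without intervals), with called genes filled. Adra1b at -1.18 and Adra2a at 1.06 are the called receptors, and 4 of the 11 genes of excitation-contraction coupling are called, all to the left of 0.

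Genes whose levels followed a receptor most closely were sought among the 9134 tested genes averaging 10 CPM or more, by Pearson's r of log2 CPM over the 8 libraries. The values describe these libraries, which differ in depth and in length trend, and say nothing of a shared function. For Adra1b, whose groups stood apart, they were Acot1 (0.995), Hadha (0.992) and Mlycd (0.991), which act in fatty acid metabolism and were all called lower in DE. Acot1 showed 78.8 to 103 CPM in FA and at most 20.1 CPM in DE. For Adra2a they were Prelid2 (0.992), Cdk2 (0.986) and Chn1 (0.977), of which Prelid2 was called, with 11.0 to 13.1 CPM in the FA libraries and 17.4 to 27.3 CPM in the DE libraries. Each of these coefficients includes the gap between the groups.

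After each group's mean was subtracted, the genes nearest to Adra1b were Zfp672 (0.965), Fadd (0.962) and Lrrc75a (0.961), and those nearest to Adra2a were Acyp1 (0.979), Prkag2 (0.973) and Ppp4r1 (0.967), none of them named above. Nearest to Adrb1 were Szrd1 (0.951), Abhd17c (0.938) and Lrrfip1 (0.934). Nearest to Chrm2 were Aqp4 (0.995), a water channel, Tmem182 (0.993) and Pirt (0.991). Aqp4 was at 52.0 and 50.0 CPM in DE 1 and DE 7 and at 31.9 and 29.3 CPM in DE 3 and DE 5, and in FA it was lowest in FA 3, at 41.3 CPM. Over all 8 libraries without subtraction, Chrm2 was nearest to Cers6 (0.984), Cog3 (0.983) and Wwp1 (0.983), and Adrb1 to Arid3b (0.953), Lrrfip1 (0.953) and Nploc4 (0.950). Adra1d was nearest to Mark2 (0.949), Fblim1 (0.935) and Dgkz (0.934) over all libraries and to Arhgef1 (0.973), Rnf207 (0.968) and Dgkz (0.966) after subtraction. Adra2b, with the fewest counts of the 6, was nearest to Hmox2 (0.900), Lrrc57 (0.880) and Stx6 (0.871) over all libraries and to Ccdc85b (0.968), Ddah2 (0.968) and Tmem254c (0.949) after subtraction.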

How the data were processed

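RNA from NCMs was measured by poly-A-selected, stranded RNA-seq in 4 FA and 4 DE libraries. The authors aligned reads to mm10 with Tophat and an Ensembl transcriptome, merged lanes, marked duplicates with Picard without removing them, passed alignments through GATK and obtained fragment numbers from featureCounts. What they deposited are raw counts for each Entrez gene, not normalized. Which annotation, strand setting and rule for multiply mapped reads were used in counting is not given in the sources used here. This limits what can be said of overlapping genes. Whether marked duplicates were counted is not given either, and if they were, counting precision would look better than it was.

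Symbols were matched for 25275 of 27179 genes through a RefSeq table of GRCm38.p6, and lengths and positions came from GENCODE annotation of the same build. Totals ran from 17943024 to 39839737 counts. A filter at 10 counts kept 14966 genes, which held at least 99.934% of each library's counts. TMM factors were applied, and exposure was the single term of the edgeR 4.0.16 fit (glmQLFit and glmQLFTest, R 4.3.3). CPM used the same factors. Each p-value sets the difference between groups against the spread between libraries from different hearts. It takes the hearts as independent, and which of them shared a litter is not given in the sources used here. No pair of libraries of the same group was alike within sampling noise, and the closest of these pairs were FA 2 and FA 4, with a chi-square per gene of 5.37.

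Members, gene lists and marker lists were chosen with earlier results of these data known, and the lists were written from general knowledge. Named were the 9 receptors, every called pathway gene, pathway genes whose role bears on a receptor, and the 3 genes most like each tested receptor. As alternatives, limma-voom (limma 3.58.1), DESeq2 1.42.0 and the likelihood ratio test of edgeR were run, a 25% difference was built into the test, scaling used relative log expression factors or library totals alone, low genes were all kept or cut at an average of 1 CPM, and fits were run with the name prefix as a term, with the libraries of prefix 11 only, with offsets for length and GC content (splines, for the 92.55% of tested genes with both) and without each library in turn. Pde4a was named after its values were seen. The model of 3 groups was added after the data were seen. On simulated counts with 200 of 14966 genes changed by a factor of 2 between 4 and 4 libraries, the quasi-likelihood test recovered 152 with 7 false calls.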

Additional observations from a re-analysis of the deposited data

Results flagged for a closer look

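Adrb1 in FA replicate 6 stood at 11.9 CPM, far below the other FA libraries at 17.3 to 18.1 CPM. The gap to its nearest neighbour took up 0.862 of the range of the group. It was the only such sample in the 18 sets of 4 libraries examined (9 receptors in FA and in DE), where chance alone marks about 1 set in 20. Adrb1 was called neither with this library nor without it.

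Chrm2 differed between the DE libraries of prefix 12 (DE 3 and DE 5) and of prefix 11 (DE 1 and DE 7) by -1.88 on the log2 scale, at an adjusted p of 0.0126 by edgeR's quasi-likelihood test in the model of 3 groups. The libraries also differed in the level of long transcripts relative to short ones, with values beside the result above, and the difference was -1.52 after removal of that trend. What the prefix stands for, and its part in this difference, was not tested.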

How the results depend on the processing

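Adra1b was called under all 19 alternatives, and Adra1d, Adrb1 and Chrm2 under none of 19 and Adra2b under none of the 17 that gave it an adjusted p, since a mean of at least 1 CPM left it untested and DESeq2 gave no adjusted p. Of the receptors, 2 were called as reported, and 1 with the 25% difference built into the test, with the prefix as a term and with the libraries of prefix 11 only, Adra2a being the one lost (adjusted p 0.0947, 0.11 and 0.143). With single libraries left out, 1 to 2 receptors were called. Of the pathway genes, 10 were called as reported, 16 with DESeq2, 0 with the 25% difference built in (edgeR's glmTreat, 14 of 101 at an unadjusted p under 0.05, beside 9.94% of all tested genes), 2 with the prefix as a term and 2 with prefix 11 only, and 2 to 11 with single libraries left out. Adra2b turned to -0.64 with the prefix as a term and to -0.65 with prefix 11 only, and ran from -0.37 to 0.37 with single libraries left out. Chrm2 turned to 0.43 and 0.42 in the same fits, and ran from -0.61 to 0.03. The causes were not tested.

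Over all genes, 868 were called, against 1633 with DESeq2, 1603 with the likelihood ratio test, 1540 with the length and GC offsets, 448 with the prefix as a term, 260 with prefix 11 only, 114 with the 25% difference built in, and 237 to 1168 with single libraries left out. Calls split into 332 lower and 536 higher, against 217 and 803 with library totals alone, where the median log2 fold change of all genes was 0.08. No paired analysis was possible because the groups share only 1 replicate number. Adra1a, Adra2c and Adrb3, at 30, 8 and 25 counts in all, were too scarce for a test, and the levels of Adra2a and Adra2b rest on few counts.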
